A study of Mus musculus with 10 samples.

Results

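Killer cell lectin-like receptors are surface proteins that were first described on natural killer (NK) cells and that CD8+ T cells also carry after activation. The genes described here are 8 mouse genes of this kind, Klrc1, Klrc2, Klrd1, Klrk1, Klrg1, Klrb1c, Klre1 and Klri2. They were chosen by name among the 57825 genes of the expression table, and all 8 were listed, each on chromosome 6. The study asked how acetate acts on CD8+ T cells that meet breast cancer cells. RNA was sequenced from 10 samples of CD8+ T cells that had been kept with 4T1 cells, a mammary carcinoma line of BALB/c mice, without sodium acetate (CD8+4T1, n = 5) or with 5 mM sodium acetate (CD8+4T1+NaAc, n = 5).

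In both groups the cells came from spleens of female BALB/c mice and were isolated with a magnetic CD8+ T cell kit. Both received plate-bound anti-CD3 with anti-CD28 and interleukin-2 for 12 h. A 24 h period with or without NaAc and then 48 h of co-culture followed, and the sample labels give day 3. The methods give an age of 7 to 8 weeks for the mice of the study's experiments, and no gene was altered in either group. Nothing in the labels says that the 5 samples of a group came from separate mice or cultures, so the p-values below measure the spread between these samples, which may be technical.

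CD94, encoded by Klrd1, is a chain that carries no signal of its own and pairs with a chain of the NKG2 family. With NKG2A (Klrc1), which carries inhibitory motifs in its tail, it forms an inhibitory receptor. With NKG2C (Klrc2) it forms an activating receptor that signals through the adaptor DAP12 (Tyrobp). Both pairs bind the nonclassical class I molecule Qa-1 (H2-T23), which is held at the surface by beta-2-microglobulin (B2m). NKG2D (Klrk1) belongs to the same cluster but pairs with itself, signals through DAP10 (Hcst) and binds stress-induced ligands such as the RAE-1, H60 and MULT1 proteins. KLRE1 pairs with KLRI1 or KLRI2, KLRG1 binds cadherins and marks differentiated effector T cells, and Klrb1c encodes NKR-P1C, known as NK1.1 in some strains.

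The FPKM used throughout relate the fragments of a gene to its length and to the total of the sample, so levels of different genes are compared per length. As listed, Klre1, Klrd1, Klrk1, Klrc2, Klrc1 and Klri2 lie in this order within 162.58 kb. Klre1 is at chr6:129554868-129562790, Klrd1 at chr6:129568745-129575738 and Klrk1 at chr6:129587286-129600827. Klrc2 follows at chr6:129624459-129637652, Klrc1 at chr6:129642978-129655936 and Klri2 at chr6:129706004-129717447. Klrb1c (chr6:128755448-128766178) ends 788.69 kb before this cluster, and Klrg1 (chr6:122247555-122259841) ends 7295.03 kb before it. Klre1 and Klrd1 are on the plus strand and the other 6 on the minus strand. The table does not name its genome build, and these positions are not those of GRCm38, so they are given as listed. Of the 8 genes, 1 overlaps another listed gene, Klrb1c with Gm44511, which stood at 0 FPKM.

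Klrc1, Klrc2 and their neighbour Klrc3, which encodes NKG2E, are close copies, and reads from identical stretches cannot be placed in a single gene. In the GENCODE transcripts of GRCm38, 38.6% of the 50-base words of Klrc1 recur in Klrc2 or Klrc3, and 14.6% of its 100-base words recur in Klrc2. For Klrc2 these shares were 16.3% and 7.09%, and for Klrc3 36.3% and 16%. Klrd1, Klrk1 and Klrg1 share no word of either length with another gene. The stretch printed next is the longest that the coding sequences of Klrc1 and Klrc2 have in common, 100 bases that form the end of both up to the stop codon (positions 633 to 732 in Klrc1 and 615 to 714 in Klrc2). It lies in a single exon of each gene, at chr6:129674862-129674961 (GRCm38, minus strand) in Klrc1 and at chr6:129656374-129656473 in Klrc2, and it is shown because fragments within it could belong to either gene:
Klrc1 and Klrc2 shared coding end: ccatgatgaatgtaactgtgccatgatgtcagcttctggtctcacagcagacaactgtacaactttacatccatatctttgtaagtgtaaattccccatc

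RefSeq promoters (GRCm38.p6, 250 bases before to 50 after a start) were found for 5 of the 8 genes, namely Klrc1, Klrc2, Klrk1, Klre1 and Klrb1c, with 7 promoters in all. Klrd1, Klrg1 and Klri2 had none in the table. The core of the RUNX motif, TGTGGT, was searched on both strands, with T-box (AGGTGT) and ETS (AGGAAG) cores, and no RUNX match overlapped a match of another motif in these promoters. RUNX, T-box and ETS proteins are transcription factors of T and NK cells, and these motifs were chosen after the promoters had been seen. A RUNX core was in at least 1 promoter of all 5 genes, though not in every promoter of Klre1. In the table it was in 18.92% of the 27025 genes with promoters and in 16.76% of the 32851 promoters. Because the motifs were chosen with these promoters seen, the difference from these shares is no evidence of enrichment. The T-box core was in none of the 5 genes (15.7% of all genes), and the ETS core was in Klrb1c and Klre1 (38.42% of all genes). A match is a string of letters and not a measured binding site. The promoters of Klrc1 and Klrc2, which were higher with NaAc, and of Klrk1, which did not pass the test, are given with the RUNX core in capitals (ACCACA where it lies on the other strand). They are of the reference genome and were not read from these BALB/c samples. The Klrc1 promoter is chr6:129678924-129679223 (minus strand) and its match begins 87 bases before the start. The Klrc2 promoter is chr6:129660547-129660846 (minus strand), with matches that begin 36 and 9 bases before the start. The Klrk1 promoter is chr6:129623815-129624114 (minus strand), with a match 129 bases before the start:
Klrc1 promoter: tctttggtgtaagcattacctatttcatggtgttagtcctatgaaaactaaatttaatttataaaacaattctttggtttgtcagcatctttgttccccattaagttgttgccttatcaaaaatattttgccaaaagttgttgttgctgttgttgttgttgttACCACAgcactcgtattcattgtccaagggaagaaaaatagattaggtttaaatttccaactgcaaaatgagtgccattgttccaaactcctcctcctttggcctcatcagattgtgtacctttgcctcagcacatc
Klrc2 promoter: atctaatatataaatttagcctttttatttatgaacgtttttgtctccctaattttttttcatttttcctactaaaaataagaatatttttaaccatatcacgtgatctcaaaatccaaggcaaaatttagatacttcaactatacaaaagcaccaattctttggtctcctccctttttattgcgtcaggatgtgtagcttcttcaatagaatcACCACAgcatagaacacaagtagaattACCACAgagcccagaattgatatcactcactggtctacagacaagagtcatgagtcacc
Klrk1 promoter: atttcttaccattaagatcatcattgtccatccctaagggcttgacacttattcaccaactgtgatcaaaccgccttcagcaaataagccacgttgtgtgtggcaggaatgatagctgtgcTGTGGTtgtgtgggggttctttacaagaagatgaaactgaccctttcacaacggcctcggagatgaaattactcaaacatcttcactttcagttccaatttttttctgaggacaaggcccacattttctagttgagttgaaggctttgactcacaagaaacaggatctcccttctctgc

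The depth was similar in both groups, 16306447 to 17443395 fragments per CD8+4T1 sample and 16503701 to 18853726 per CD8+4T1+NaAc sample. The listed genes held a median of 97.4% of them in CD8+4T1 and 91.1% in CD8+4T1+NaAc. CD8+4T1+NaAc replicate 1 had the fewest genes above 0 FPKM, 20233. Cd8a, which defines the labelled cell type, was at 78.6 ± 2.34 FPKM (SD, n = 5) in CD8+4T1 and 76.5 ± 4.37 in CD8+4T1+NaAc. Marker sums of other cells differed between the groups and are given beside the receptor results below. The 15710 genes whose mean over the samples reached 0.5 FPKM were compared with limma on log2(FPKM + 0.1), where fold changes of low genes are understated. A call required an adjusted p under 0.05 (Benjamini-Hochberg, over all genes tested). With this rule 36.5% of the genes tested were called, 17.6% higher and 19% lower in CD8+4T1+NaAc. The receptor genes are read against these shares.

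Of the 8 receptor genes, 5 passed the filter on low values (Klrc1, Klrc2, Klrd1, Klrk1 and Klre1). Of these 5, Klrc1 and Klrc2 were called higher in CD8+4T1+NaAc and none lower (limma; 0 lower also at an unadjusted p under 0.05 and by voom). The median log2 fold change was 0.25 over the 5 and -0.02 over all genes tested. Klri2 lay just under the filter, with a mean of 0.467 FPKM, and Klrg1 and Klrb1c were at a handful of fragments.

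Over all samples the mean level was highest for Klrd1 (48.9 FPKM), then Klrk1 (42.0) and Klrc1 (30.1), with Klrc2 at 6.19. Klrd1 stood above 95.9% of the 21959 listed protein-coding genes, Klrk1 above 95.1% and Klrc1 above 92.6%. Klre1 followed at 0.804 FPKM, Klri2 at 0.467, Klrg1 at 0.102 and Klrb1c at 0.0679. Klrd1 and Klrk1 overlapped in either group, and so did Klrg1 and Klrb1c. Klre1 lay above every Klri2 value in CD8+4T1 but not in CD8+4T1+NaAc. Klrc1 lay below every Klrk1 value in CD8+4T1 but overlapped Klrk1 in CD8+4T1+NaAc.

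**Figure D1:**
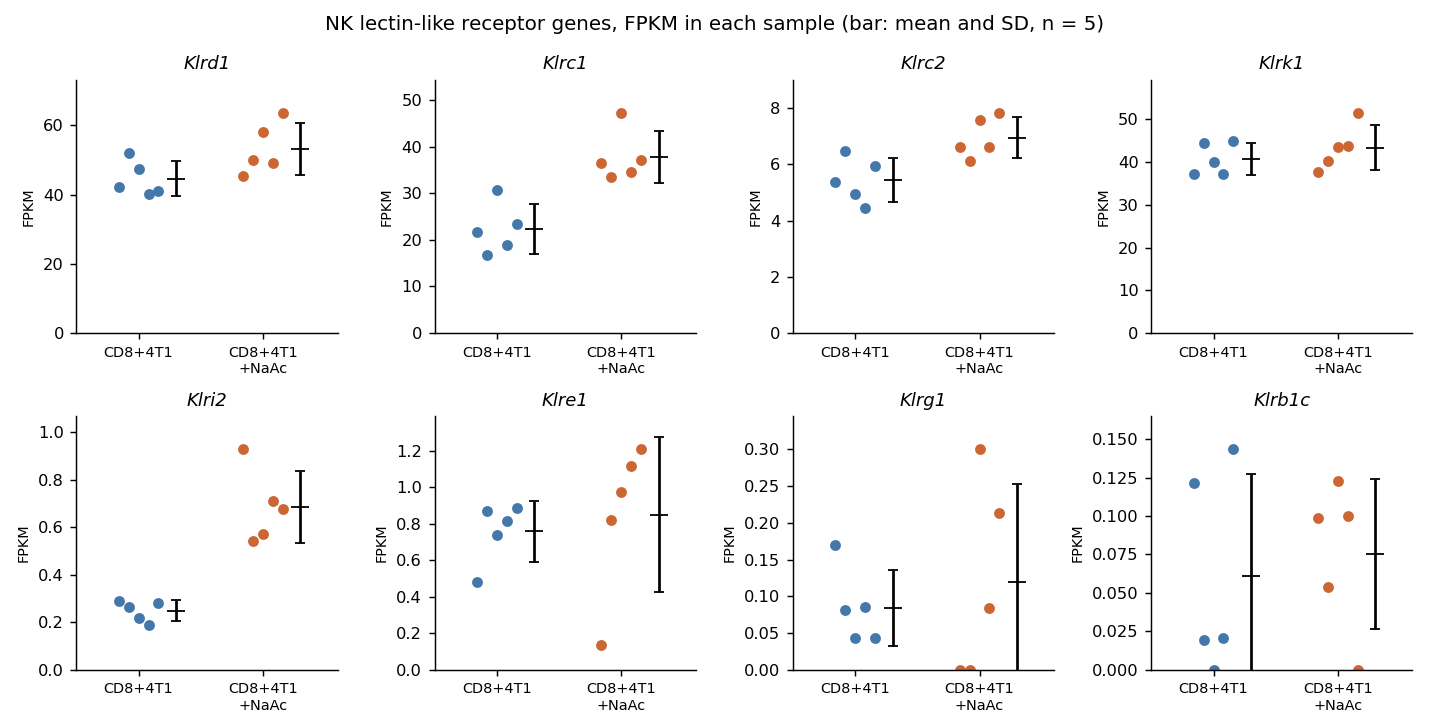
FPKM of the 8 receptor genes (vertical axes, linear, a separate scale for each gene) in each sample, CD8+4T1 in blue and CD8+4T1+NaAc in orange, with the mean and SD (n = 5) beside the points, cut at 0 where an SD reaches below it. For Klrc1 and Klri2 every CD8+4T1+NaAc sample lies above every CD8+4T1 sample, and for the other 6 genes the groups overlap.

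Klrd1, the shared CD94 chain, was at 42.1, 51.9, 47.5, 40.2 and 41.0 FPKM in CD8+4T1 replicates 1 to 5. With NaAc the values were 45.2, 50.02, 58.1, 49.0 and 63.6 FPKM. The groups overlapped, since CD8+4T1 replicate 2 exceeded replicates 1, 2 and 4 of the other group. Means were 44.6 ± 5.005 and 53.2 ± 7.49 FPKM (SD, n = 5). The log2 fold change was 0.25 (SE 0.10, 95% interval 0.02 to 0.48). This did not pass the test (limma, adjusted p = 0.0814). It did pass without CD8+4T1 replicate 2 (log2 fold change 0.31, limma adjusted p = 0.0433) and without CD8+4T1+NaAc replicate 1 (0.31, limma adjusted p = 0.0286).

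Klrc1, the inhibitory NKG2A chain, was at 21.7, 16.8, 30.8, 19.0 and 23.3 FPKM in CD8+4T1. In the CD8+4T1+NaAc samples it was at 36.6, 33.6, 47.3, 34.5 and 37.1 FPKM. Every CD8+4T1+NaAc sample was above the highest CD8+4T1 sample, replicate 3, which was the case in the same direction for 13.1% of all genes tested. The means were 22.3 ± 5.36 and 37.8 ± 5.50 FPKM (SD, n = 5), and 581 to 996 fragments in CD8+4T1 and 1158 to 1549 in CD8+4T1+NaAc stood behind the values. Klrc1 rose by a log2 fold change of 0.78 (SE 0.15, 95% interval 0.44 to 1.12), that is 1.72-fold (limma, adjusted p = 0.00252). It was called in each of the alternatives run, with log2 fold changes of 0.68 to 1.03.

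Klrc2, the activating NKG2C chain, was at 5.36, 6.48, 4.95, 4.46 and 5.95 FPKM in CD8+4T1. With NaAc it was at 6.60, 6.12, 7.56, 6.62 and 7.83 FPKM. The ranges met only through CD8+4T1 replicate 2, which lay above CD8+4T1+NaAc replicate 2. The means were 5.44 ± 0.799 and 6.95 ± 0.718 FPKM (SD, n = 5). Klrc2 rose by a log2 fold change of 0.35 (SE 0.11, 95% interval 0.12 to 0.59), or 1.28-fold (limma, adjusted p = 0.0250). The call was lost without CD8+4T1 replicate 3 or 4 and without CD8+4T1+NaAc replicate 3 or 5, where the log2 fold change was 0.29 to 0.32 and the limma adjusted p 0.0545 to 0.0613.

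Whether both NKG2 chains rose in the same proportion was read from ratios within a sample, which do not depend on how samples are scaled. The Klrc1 share of Klrc1 plus Klrc2 was 80.2, 72.1, 86.2, 81.0 and 79.7% in CD8+4T1. With NaAc the share was 84.7, 84.6, 86.2, 83.9 and 82.6%. The ranges overlapped, with CD8+4T1 replicate 2 the lowest. Means were 79.8 ± 5.01% and 84.4 ± 1.32% (SD, n = 5), higher by 4.58 percentage points (exact permutation test, two-sided, p = 0.0476, also 0.0476 adjusted over the 2 ratios). The call was lost in 9 of the 10 fits that leave out a sample, with differences of 2.66 to 5.03 points in those 9. The summed level of Klrc1 and Klrc2 per Klrd1 was 0.642, 0.448, 0.752, 0.582 and 0.714 in CD8+4T1. It was 0.955, 0.793, 0.944, 0.839 and 0.707 in CD8+4T1+NaAc, where replicate 5 fell within the other group. The log2 ratio was higher by 0.45 in CD8+4T1+NaAc (exact permutation test, two-sided, p = 0.0238, adjusted p = 0.0476). The means on the linear scale were 0.628 ± 0.120 and 0.848 ± 0.105 (SD, n = 5).

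Klrk1, which encodes NKG2D, was at 37.2, 44.4, 39.9, 37.1 and 44.9 FPKM in CD8+4T1. Replicates 1 to 5 of CD8+4T1+NaAc had 37.8, 40.3, 43.6, 43.7 and 51.5 FPKM. The groups overlapped throughout, and only replicate 5 of CD8+4T1+NaAc exceeded the other group's range. Means were 40.7 ± 3.79 and 43.4 ± 5.18 FPKM (SD, n = 5). The log2 fold change of 0.09 (SE 0.09, 95% interval -0.11 to 0.28) did not pass the test (limma, adjusted p = 0.474). With 4394 to 6144 fragments per sample the interval is set by the spread between samples. It covers changes between 0.928-fold and 1.22-fold.

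The fold changes depend on the scaling, because the FPKM of CD8+4T1+NaAc samples had a lower total and lower T cell markers. With samples rescaled to the same total, the median of all genes tested moved up by 0.17 on the log2 scale, and with rescaling to 9 T cell markers it moved up by 0.24. Under either rescaling Klrc1, Klrc2, Klrd1 and Klrk1 were all called higher, as were 31.2% and 37% of all genes tested. A rescaling divides all genes of a sample by a single factor, so it shifts every gene and the median nearly alike. The distance of the 4 genes from the median gene is therefore nearly fixed, and its constancy tests nothing. Klrc1 was at 0.80 above the median in each of the 3 scalings, Klrc2 at 0.37, Klrd1 at 0.27 to 0.28 and Klrk1 at 0.11. Rescaled to T cell markers, Klrd1 had a log2 fold change of 0.50 (limma, adjusted p = 0.00191) and Klrk1 one of 0.34 (adjusted p = 0.00768). Rescaled to the same total, these were 0.43 (limma, adjusted p = 0.00601) and 0.27 (adjusted p = 0.0308).

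**Figure D2:**
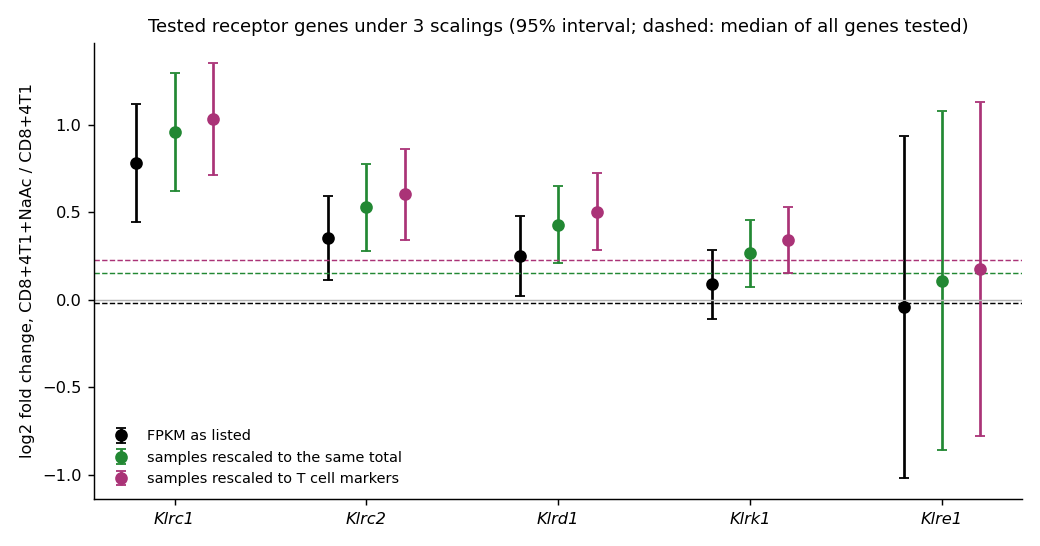
Log2 fold change of CD8+4T1+NaAc over CD8+4T1 (vertical axis) of the 5 tested receptor genes with FPKM as listed, rescaled to the same total and rescaled to T cell markers, with 95% intervals from limma (n = 5 per group). Dashed lines mark the median of all genes tested under each scaling. Klrc1 lies farthest above it in all 3, as a rescaling shifts genes and median nearly alike.

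KLRE1 and KLRI2 are chains of a receptor pair in which KLRI2 is the activating partner. Klri2 was at 0.291, 0.264, 0.219, 0.186 and 0.279 FPKM in CD8+4T1. With NaAc its values were 0.927, 0.542, 0.573, 0.710 and 0.677 FPKM. The groups did not overlap, but only 12 to 19 fragments in CD8+4T1 and 37 to 62 in CD8+4T1+NaAc stood behind these values. The means were 0.248 ± 0.0437 and 0.686 ± 0.152 FPKM (SD, n = 5), and the mean log2(FPKM + 0.1) was higher by 1.17 in CD8+4T1+NaAc. This size depends on the pseudocount, being 0.43 with 1 and 1.42 with 0.01 in place of 0.1. The exact permutation test gave p = 0.00794, the smallest that 5 samples against 5 allow. Fitted without the filter on low values, Klri2 was called (limma, adjusted p = 0.00239), as were 8.94% of the 32272 genes of that fit in the same direction.

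Klre1 was at 0.480, 0.870, 0.737, 0.816 and 0.884 FPKM in CD8+4T1. The CD8+4T1+NaAc samples had 0.134, 0.820, 0.971, 1.12 and 1.21 FPKM. Replicate 1 of CD8+4T1+NaAc, with 8 fragments, lay far below the rest of its group, which had 54 to 70. The log2 fold change was -0.04 (SE 0.44, 95% interval -1.02 to 0.93) and did not pass the test (limma, adjusted p = 0.951). Without CD8+4T1+NaAc replicate 1 it was 0.41, which did not pass the test either (limma, adjusted p = 0.135).

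Klrg1 was at 0.169, 0.0811, 0.0434, 0.0858 and 0.0429 FPKM in CD8+4T1. The CD8+4T1+NaAc samples had 0, 0, 0.300, 0.0836 and 0.213 FPKM. This is 0 to 7 fragments per sample, and a difference was not detectable at this depth (exact permutation test, p = 0.857). Klrb1c was at 0.121, 0.0194, 0, 0.0205 and 0.143 FPKM in CD8+4T1. With NaAc the values were 0.0988, 0.0537, 0.123, 0.0998 and 0 FPKM. These rest on 0 to 7 fragments as well, and the groups overlapped fully (exact permutation test, p = 0.603). A floor of 3 fragments was set for folds, and none is given for either gene.

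The adaptors and signalling genes that these receptors use were a list of 15, of which 13 were tested, 3 called higher and 4 lower, with a median log2 fold change of -0.06. Hcst, which encodes DAP10, an adaptor of NKG2D, was at 10.6, 11.9, 14.9, 13.5 and 14.6 FPKM in CD8+4T1. With NaAc it was at 7.53, 9.62, 9.06, 7.12 and 7.84 FPKM, below every CD8+4T1 sample. The share of all genes tested with this separation was not counted, and 19% of them were called lower. Hcst fell by 0.66 on the log2 scale (SE 0.11, limma adjusted p = 0.00103). Tyrobp, which encodes DAP12, an adaptor that NKG2C uses, was under the filter. It was at 0.252 ± 0.208 FPKM in CD8+4T1 and 0.725 ± 0.268 in CD8+4T1+NaAc (SD, n = 5), or 0 to 6 against 5 to 13 fragments. Plcg2, a phospholipase C of activating signals, rose from 4.68 ± 0.563 to 9.91 ± 0.767 FPKM (SD, n = 5; log2 fold change 1.07, SE 0.09, limma adjusted p = 2.4e-05). Its relative Plcg1 (log2 fold change 0.31) and the kinase Zap70 (0.27) were the others called higher. Ptpn6, which encodes SHP-1, the phosphatase that inhibitory receptors such as NKG2A recruit, fell by 0.40 on the log2 scale from 125 ± 4.05 to 94.7 ± 2.22 FPKM (SD, n = 5; limma, adjusted p = 5.91e-05). Grb2 (log2 fold change -0.44) and Vav1 (-0.27), which act below DAP10, were called lower. For Grb2 replicate 1 of CD8+4T1+NaAc stood apart at 102 FPKM, above the CD8+4T1 range of 84.7 to 97.4, with the other 4 at 56.2 to 62.4. Without that sample its log2 fold change was -0.60 (limma, adjusted p = 2.82e-05), and the call was kept without CD8+4T1 replicate 2 but lost when any other single sample was left out (limma adjusted p up to 0.0731) and with no filter (0.0574). Zap70 lost its call without CD8+4T1 replicate 2 or CD8+4T1+NaAc replicate 3, 4 or 5 (limma adjusted p up to 0.0612). Ptpn11, which encodes the related phosphatase SHP-2, had a log2 fold change of -0.06 that did not pass the test and turned to 0.19 with T cell marker scaling (limma, adjusted p = 0.0415). Under that scaling Hcst still fell by 0.41 (limma, adjusted p = 0.00844) and Ptpn6 by 0.15 (limma, adjusted p = 0.0472), while Grb2 and Vav1 lost their calls there and with the same total.

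Ligands of the receptors can be made by both cell types of the co-culture. Of 14 ligand genes in the list 10 were in the table and 4 were tested, with 2 called lower and none higher and a median log2 fold change of -0.29. At an unadjusted limma p under 0.05, 1 was higher (H60b) and 3 were lower (Ulbp1 besides the 2 called), and voom called H60b but not Ulbp1. H2-T23, the Qa-1 gene whose product CD94 pairs with NKG2A or NKG2C bind, was at 98.8, 104, 111, 115 and 116 FPKM in CD8+4T1. The CD8+4T1+NaAc samples had 69.8, 84.7, 80.2, 76.0 and 88.7 FPKM, below every CD8+4T1 sample. How many of all genes tested lay so was not counted, and 19% of them were called lower. H2-T23 fell by 0.45 on the log2 scale (SE 0.07, limma adjusted p = 0.000793). B2m fell by 0.44 (limma, adjusted p = 0.000172). With T cell marker scaling the log2 fold changes were -0.20 for H2-T23 and -0.19 for B2m (limma, adjusted p = 0.0305 and 0.0302). Ulbp1, the gene of the NKG2D ligand MULT1, was at 40.8 ± 1.91 and 37.0 ± 2.42 FPKM and H60b at 9.10 ± 1.27 and 10.6 ± 0.597 (SD, n = 5), and neither passed the test (limma, adjusted p = 0.0674 and 0.0698). Raet1e, a RAE-1 family gene, was under the filter at 0.056 ± 0.0527 FPKM in CD8+4T1 and 0.819 ± 0.44 in CD8+4T1+NaAc (SD, n = 5), with no overlap between the groups. Cdh1, the gene of E-cadherin, a ligand of KLRG1, was at 0.0316 ± 0.0258 and 0.606 ± 0.225 FPKM, likewise without overlap. It is also an epithelial marker.

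Other genes of the NK gene complex, which holds the lectin-like receptors and several of their ligands, were a list of 32, of which 28 were in the table and 7 were tested. Of these 4 were called higher and 3 lower, with a median log2 fold change of 0.33. Klrc3, whose product NKG2E also pairs with CD94, was at 10.49, 9.11, 6.75, 7.01 and 5.35 FPKM in CD8+4T1. With NaAc it was at 19.8, 15.9985, 20.8, 15.5 and 20.4 FPKM, above every CD8+4T1 sample. Of all genes tested 13.1% lay so. Klrc3 rose by a log2 fold change of 1.27 (SE 0.17, limma adjusted p = 0.000262), with 65 to 129 fragments against 193 to 253. As given above, Klrc3 shares sequence with Klrc1 and Klrc2, so the division of fragments among the 3 genes is uncertain. With Klrc3 added to the other NKG2 chains, their sum per Klrd1 was 0.802 ± 0.114 in CD8+4T1 and 1.20 ± 0.147 in CD8+4T1+NaAc (SD, n = 5), and the groups did not overlap.

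Clec2f, a C-type lectin gene near the NKR-P1 receptors, rose from 2.02 ± 0.536 to 6.34 ± 0.942 FPKM (SD, n = 5; log2 fold change 1.63, SE 0.18, limma adjusted p = 8.11e-05). Klra5, a Ly49 receptor gene, was called higher at 1.35 ± 0.520 against 2.34 ± 0.440 FPKM (SD, n = 5; log2 fold change 0.80, limma adjusted p = 0.0139). Clec2i was called higher with a log2 fold change of 0.33. Clec2d, which encodes the ligand Clr-b of the inhibitory receptor NKR-P1B, fell by 0.81 on the log2 scale from 34.8 ± 10.3 to 19.4 ± 3.04 FPKM (SD, n = 5; limma, adjusted p = 0.00735). Klra3, another Ly49 gene, was called lower at 1.36 ± 0.136 against 0.412 ± 0.335 FPKM (SD, n = 5; limma, adjusted p = 0.0183), with 0 to 17 fragments in CD8+4T1+NaAc. This call was lost with a pseudocount of 0.01 (limma, adjusted p = 0.0662). The activation antigen gene Cd69 was called lower (log2 fold change -0.42), a call that both rescalings lost, while Clec2d and Klra3 kept theirs under the rescalings. Of the 28 listed genes, 15 had a mean under 0.1 FPKM, 7 of them at 0 in every sample. The table follows the reference annotation, and the NK complex of BALB/c mice differs from it in gene content.

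**Figure D3:**
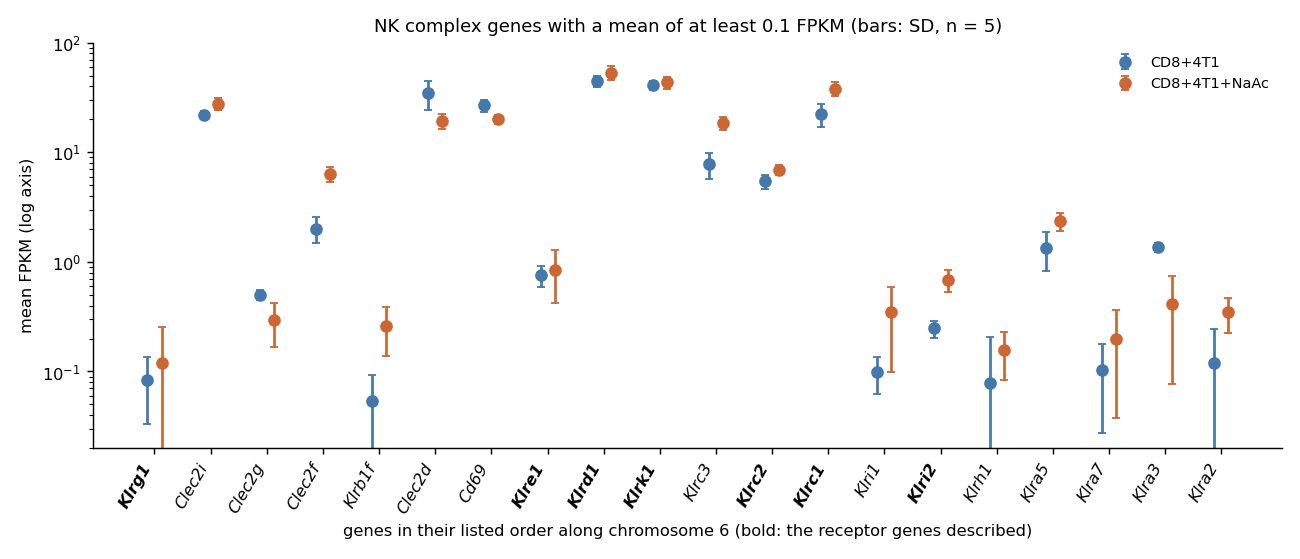
Mean FPKM with SD (n = 5, log axis, lower bars cut at the axis where they reach it) in CD8+4T1 and CD8+4T1+NaAc for those NK complex and receptor genes whose mean reached 0.1 FPKM, in their listed order along the chromosome. Klrd1, Klrk1 and Klrc1 have the highest means in CD8+4T1+NaAc, Clec2d and Cd69 lie above Klrc1 in CD8+4T1, and genes higher and lower in CD8+4T1+NaAc lie side by side.

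Markers of other cells moved with the groups, and their part in the receptor results was not tested. NK cells carry CD94, NKG2A and NKG2C too. The sum of 8 NK cell markers was 0.881 to 1.84 FPKM in CD8+4T1 and 2.66 to 3.88 in CD8+4T1+NaAc, without overlap (exact permutation test, p = 0.00794). Most of the difference lay in Itga2, which encodes CD49b, at 0.230 ± 0.107 and 1.38 ± 0.331 FPKM (SD, n = 5; limma, adjusted p = 0.000294). The NK marker sum was highest in CD8+4T1 replicates 4 and 5 (1.71 and 1.84 FPKM) and in CD8+4T1+NaAc replicate 2 (3.88). In the same samples the epithelial marker sum, given below, was highest (17.3, 18.0 and 172.5 FPKM). Whether the Itga2 fragments came from NK cells or from 4T1 cells was not tested. Tyrobp, with the values given above, was higher too (exact permutation test, p = 0.0238), though its groups overlapped. Fitted without the filter on low values, Tyrobp did not pass the test (limma, adjusted p = 0.0677). Fcer1g was at 0.633 ± 0.221 and 0.624 ± 0.383 FPKM (SD, n = 5) and did not pass the test (limma, adjusted p = 0.812). Ncr1, which encodes NKp46, was at 0.0227 ± 0.0335 and 0.0932 ± 0.0972 FPKM (SD, n = 5), that is 0 to 5 fragments per sample. The Ly49 genes Klra4, Klra8 and Klra9 had means under 0.1 FPKM, but Klra4 and Klra8 belong to the reference strain and are not in the BALB/c complex, so they do not bear on NK cells here. Of the gamma-delta and NKT cell markers, Trdc was at 0.375 ± 0.0337 FPKM in CD8+4T1 and 0.515 ± 0.135 in CD8+4T1+NaAc (SD, n = 5). Zbtb16 was at 0.366 ± 0.0403 and 0.336 ± 0.124 FPKM, and Sox13, at 0.528 ± 0.222 and 0.752 ± 0.146 FPKM (SD, n = 5), did not pass the test (limma, adjusted p = 0.201). Another marker of this list is not reported here, so these genes do not stand for the whole list. The CD4 T cell markers Cd4 and Foxp3 summed to 0.469 to 1.08 and 1.47 to 2.01 FPKM, where Cd4 rose by 1.44 on the log2 scale (limma, adjusted p = 0.000317).

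4T1 cells are of mammary epithelial origin, and 10 epithelial markers summed to 8.18 to 18.0 FPKM in CD8+4T1 and 64.1 to 172.5 in CD8+4T1+NaAc, without overlap. Of the 7 tested, 5 were called higher (Krt8, Lcn2, Krt18, Krt7 and Cldn3), Krt8 from 3.42 ± 1.69 to 34.2 ± 13.1 FPKM (SD, n = 5). Krt19 and Cldn4 were at or near 0. The 9 T cell markers summed to 820 to 926 FPKM in CD8+4T1 and 754 to 822 in CD8+4T1+NaAc (exact permutation test, p = 0.0159). Of these markers 6 were called lower, Cd3d and Cd3g by 0.54 and 0.53 on the log2 scale down to 59.8 ± 8.22 and 51.3 ± 8.44 FPKM (SD, n = 5), while Cd8a did not pass the test and the call of Cd2 was lost in 8 of 10 fits that leave out a sample. In bulk samples fewer cells of a type and less RNA per cell cannot be told apart. Myeloid markers summed to 25.1 to 34.4 and 25.9 to 29.8 FPKM (p = 0.381 by the exact permutation test), with Lyz2 the 1 called (a call lost in 6 of 10 fits that leave out a sample), and B cell markers to 13.1 to 14.3 and 12.1 to 21.1 FPKM (exact permutation test, p = 0.0476). Klrc1 was lowest and highest in replicates 2 and 3 of CD8+4T1, and the epithelial sum was highest there in replicates 4 and 5. Within CD8+4T1+NaAc the epithelial sum was highest in replicate 2, where Klrc1 was lowest. Whether Klrc1 varies with the epithelial sum within a group was not tested.

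**Figure D4:**
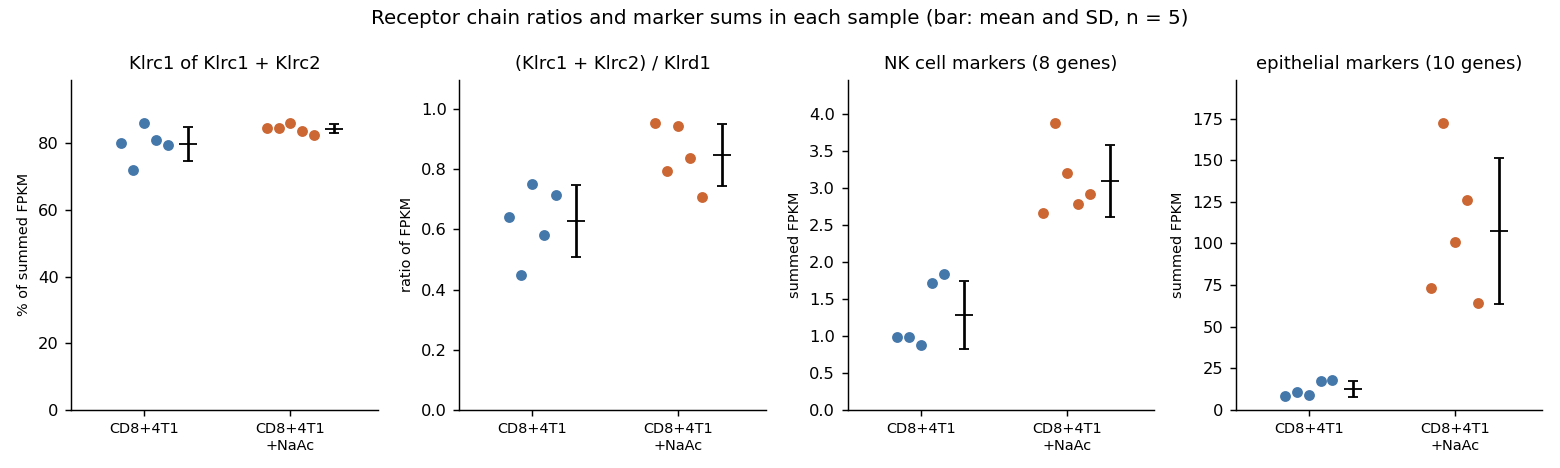
Klrc1 share of Klrc1 plus Klrc2 (% of summed FPKM), the ratio of Klrc1 plus Klrc2 to Klrd1, and the summed FPKM of NK cell and epithelial markers in each sample of CD8+4T1 (blue) and CD8+4T1+NaAc (orange), with mean and SD (n = 5). The ratios overlap between the groups, and neither marker sum does.

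Across the 10 samples, which include the difference between the groups, Klrd1 followed Klrc2 (Pearson r = 0.80 on log2(FPKM + 0.1)) and Klrk1 (0.73), and Klrc2 followed Klrk1 (0.72). Klrc1 followed Klrc2 (r = 0.61) and Klrd1 (0.58) less closely and Klrk1 least (0.27). Of 10625 protein-coding genes with a mean above 1 FPKM, the closest to Klrc1 were Gucd1 (r = 0.94) and Tcea3 (0.94). For Klrc2 they were Tlk1 (r = 0.96) and Ccni (0.95), for Klrd1 Naa40 (0.94) and Ralgapa1 (0.92), and for Klrk1 Exoc4 (0.96) and Son (0.91). These are descriptions over 10 samples that share the group difference and the scaling, and no receptor gene was among the closest 2 of another.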

How the data were processed

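RNA sequencing of CD8+ T cells kept with 4T1 cells covered 10 samples. The submitters' processing notes name fastp, HISAT2 2.0.5, StringTie 1.3.3b and featureCounts 1.5.0-p3; build and strand setting are not given in the sources used here. The authors deposited FPKM per gene and sample, not pooled, with other columns for position and gene length. FPKM times length gave whole fragments for 100% of values (within 0.1), hence the depth. Sample groups came from the labels. Genes whose mean reached 0.5 FPKM were compared on log2(FPKM + 0.1) with limma 3.58.1 (R 4.3.3, trend and robust moderation, Benjamini-Hochberg), and ratios, marker sums and untested genes by exact permutation, two-sided. The limma fit was also tested on simulated data. The receptor genes and lists were chosen with earlier results of these data known. The text names all receptor genes, up to 6 called genes per list with an absolute log2 fold change over 0.5, ligands and adaptors, and the 2 closest genes of each receptor gene above 1 FPKM. Alternatives were other pseudocounts, filters and scalings, no moderation, voom, a replicate block and samples left out. Protein sequences were not used here. A marker gene of the gamma-delta and NKT cell list is not reported here.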

Additional observations from a re-analysis of the deposited data

Results flagged for a closer look

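Of 22 groups of 5 samples checked for a sample far from the others, with about 1.1 flags given by chance, 1 was marked. For Klre1 the log2(FPKM + 0.1) of CD8+4T1+NaAc replicate 1 was the lowest, and its gap to the next sample made up 0.796 of the range of the group, above the limit of 0.71. The value rests on 8 fragments against 54 to 70 in the other samples of the group. That sample also had the fewest genes above 0, and the part of this in the Klre1 value was not tested.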

How the results depend on the processing

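Klrc1 kept its call in all 10 fits that leave out a sample (log2 fold change 0.68 to 0.90) and in the 11 other alternatives (0.75 to 1.03). The number of receptor genes called higher, 2, was 4 with the same total or T cell marker scaling and 1 to 3 when a sample was left out (Klrc2 lost or Klrd1 gained). None was called lower in any of them. In voom on recovered fragments Klrd1 was called as well (log2 fold change 0.34, limma adjusted p = 0.0101). Of the other NK complex genes 2 in place of 4 were called higher with a mean of at least 5 FPKM, where fewer genes are tested. Of the adaptors 6 in place of 3 were called higher with T cell marker scaling, and 2 in place of 4 lower with that scaling or the same total. Ligand genes called higher, none as listed, were 2 with no filter, 1 with the same total, T cell marker scaling or voom, and 0 to 1 with a sample left out (1 without CD8+4T1 replicate 3 or CD8+4T1+NaAc replicate 1). The cause was not tested. The Klrc1 share differed by 2.66 to 6.16 points with a sample left out, lowest without CD8+4T1 replicate 2 and highest without CD8+4T1 replicate 3, the only one to keep the call. With both replicates numbered 1 left out it differed by 4.58 points (exact permutation test, p = 0.143) and the log2 ratio to Klrd1 by 0.42 (p = 0.0857).

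Same-numbered samples of the groups did not deviate together (mean r = 0.0144, lowest -0.0283, highest 0.0694; 2 of 5 samples correlated best with their own number), so the numbers were not read as pairs. With the replicate block 5399 genes were called in place of 5742, and Klrc1 and Klrc2 kept their calls (limma, adjusted p = 0.00091 and 0.0448). In the blocked exact permutation test, which cannot go below 0.0625 here, the Klrc1 share (4.58 points, p = 0.0625) and the log2 ratio to Klrd1 (0.45, p = 0.125) did not pass. Depth limits Klrg1, Klrb1c, Klre1 and Klri2, each at up to 70 fragments in a sample.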
